A study of Mus musculus with 6 samples.

Results

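The genes described here are 10 negative regulators of mitogen-activated protein kinase (MAPK) signalling, chosen by name: the dual-specificity phosphatases Dusp1, Dusp4, Dusp5, Dusp6 and Dusp14, the Sprouty genes Spry1, Spry2 and Spry4, and the Spred genes Spred1 and Spred2. All 10 were among the 14824 genes of the deposited table, and all 10 passed the filter on low counts that left 13747 genes to test. Total RNA was sequenced from the primary somatosensory (S1) cortex of mice labelled WT, strain C57B6, at postnatal day 21. In 3 libraries the whiskers had been stimulated (WS) and the tissue was taken 90 min after the last stimulation, and in 3 libraries there was no stimulation (NS, titled as NW controls). The stimulation was a daily brushing of the right whiskers. In the study's model the barrel cortex of the side without input serves as the NS control, and the sequencing is described with as many mice as each group has libraries. Which NS and WS libraries share a mouse is not given in the sources used here. Samples were accepted by the study at an RNA integrity number above 2, and their own integrity numbers were not analysed here. The comparison asks whether the transcripts of these inhibitors differed in level 90 min after the last of the daily sessions. An effect of the last session and one of the repeated sessions cannot be told apart. Each sample was bulk cortex, so fewer cells of a type and less RNA per cell cannot be told apart.

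MAPK signalling runs from receptor tyrosine kinases through Ras, Raf and MEK to the kinase ERK, and parallel branches lead to JNK and p38. Active ERK raises the transcription of several of its own inhibitors, so that these genes form negative feedback loops. In neurons ERK is activated by synaptic input and calcium entry, and Dusp1, Dusp4, Dusp5, Dusp6 and some Sprouty genes are known as activity- or growth factor-induced genes.

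The libraries held 15660395 to 17276168 estimated counts over the listed genes. Summed CPM (counts scaled to library size and TMM-normalized) of 6 neuron markers lay between 7465 and 8062, and markers of astrocytes, oligodendrocytes, microglia, endothelial cells and pericytes were all above 0 in each library. Striatal markers summed to 344 to 480 CPM in NS and 334 to 720 CPM in WS, and choroid plexus markers to 33.3 to 79.2 CPM in NS and 10.2 to 93.5 CPM in WS. No gene of these 8 marker lists was called between WS and NS.

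None of the 10 inhibitors passed the test between WS and NS (edgeR, quasi-likelihood F test, p adjusted by Benjamini-Hochberg). Where a call needed both an adjusted p below 0.05 and a log2 fold change beyond 1 in size, 0 of 10 were called, where 0.0291% of all tested genes were. With an adjusted p under 0.05 alone the count was again 0 of 10, against 0.0364% of all genes, and it was 0 of 10 with DESeq2, against 0.054%. At an unadjusted p under 0.05 the count was still 0 of 10, against 1.19% of all genes, and the lowest p was that of Dusp14 at 0.0784 by edgeR before adjustment. The WS and NS libraries overlapped for each of the 10 genes, where 6.27% of all genes had groups that did not overlap. Log2 fold changes ran from -0.20 to 0.03, with 2 genes above 0 and 8 below, and their median was -0.04 beside 0.0074 for all tested genes. Over all tested genes the central 90% of log2 fold changes lay between -0.17 and 0.26.

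The libraries of both groups carry replicate numbers 1 to 3 in their titles, and libraries of the same number deviated together. When replicate number was added as a block, 0 of 10 inhibitors were called, against 0.08% of all genes, and the adjusted p of each was 1.00. The 95% interval of the log2 fold change of Dusp1 went from -0.82 to 0.77 without the block to -0.20 to 0.22 with it, while that of Spred1 widened, from -0.21 to 0.10 to -0.25 to 0.14. Over the 10 genes the blocked intervals reached from 68.2% to 126% of the NS level. A change of 2-fold in either direction was therefore outside the interval of each inhibitor in this fit.

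**Figure D1:**
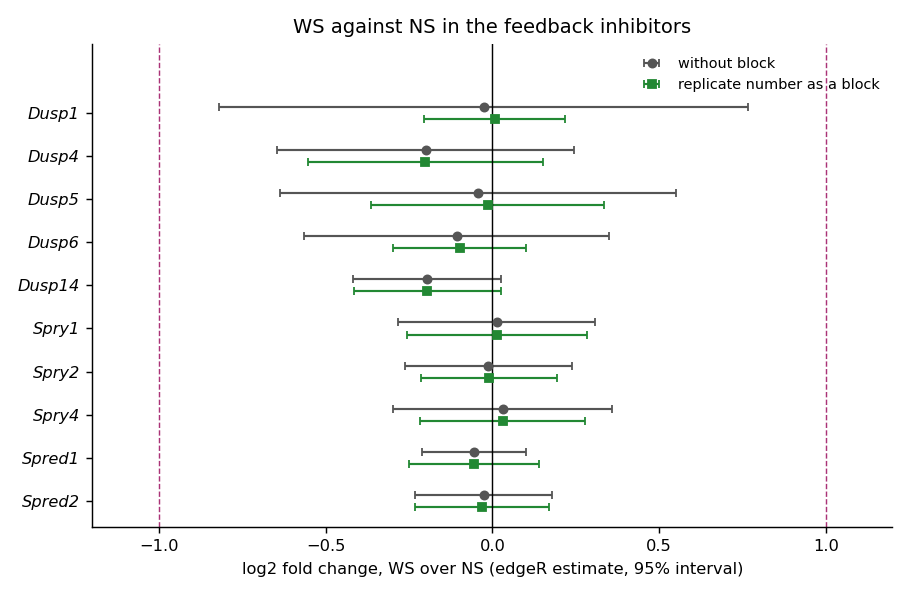
Log2 fold change of WS over NS for each inhibitor (horizontal axis, edgeR estimates, bars 95% intervals), fitted without a block (grey circles) or with replicate number as one (green squares). The dashed lines mark a log2 change of 1 in either direction, and every interval crosses 0 and stays inside them.

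Among the nuclear phosphatases, Dusp1 (MKP-1), which acts on p38, JNK and ERK, had 20.6, 40.6 and 63.8 CPM in NS replicates 1, 2 and 3. In WS it had 22.3, 42.1 and 58.7 CPM in the same order. Each group thus spanned a wide range and the ranges were nearly the same, with both replicates 1 low and both replicates 3 high. Mean CPM was 41.7 ± 21.6 (SD, n = 3) in NS and 41.0 ± 18.2 (SD, n = 3) in WS. The log2 fold change was -0.03 ± 0.36 (SE), and 0.0063 ± 0.10 with the block.

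Dusp5, a nuclear phosphatase selective for ERK, had 3.78, 6.43 and 8.70 CPM in NS and 4.92, 5.51 and 7.96 CPM in WS, from 60 to 140 counts a library. Again the replicates 1 were lowest and the replicates 3 highest in both groups. The log2 fold change was -0.04 ± 0.27 (SE).

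Dusp4 (MKP-2), the third nuclear phosphatase, had 5.99, 8.68 and 6.21 CPM in NS and 4.62, 6.19 and 7.39 CPM in WS. Its highest library was NS replicate 2 and its lowest WS replicate 1, and the groups overlapped. The log2 fold change was -0.20 ± 0.20 (SE), with 1 of 3 same-numbered pairs higher in WS. Without NS replicate 2 it was -0.011 and without WS replicate 1 -0.036.

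Dusp6 (MKP-3), the cytoplasmic phosphatase that acts on ERK, had 55.0, 89.6 and 98.4 CPM in NS and 54.3, 79.5 and 92.0 CPM in WS. The replicates 1 of both groups stood apart from the other libraries at almost the same value. WS was lower than NS in 3 of 3 same-numbered pairs, by a log2 fold change of -0.10 ± 0.10 (SE) with the block, which did not pass the test.

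Dusp14, a small phosphatase without the kinase-binding domain of the classical members, had 80.6, 85.3 and 99.9 CPM in NS and 83.5, 79.5 and 68.9 CPM in WS. The highest and the lowest values were both replicates 3, NS and WS respectively, while at number 1 WS was the higher of the pair. The log2 fold change was -0.20 ± 0.10 (SE), and its adjusted p in edgeR and DESeq2 was 0.891 to 1.00 over the alternatives. Its unadjusted p in edgeR fell below 0.05 when NS replicate 1 or WS replicate 1 was left out, with the lowest at 0.0301 without WS replicate 1. Without NS replicate 3 the log2 fold change of Dusp14 was -0.10, and without WS replicate 3 it was -0.12. An exact permutation test of its CPM gave a two-sided p of 0.2, where the smallest p that 3 against 3 libraries allow is 0.1.

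The Sprouty proteins restrain receptor tyrosine kinase signals upstream of ERK. Spry2 had 47.1, 56.7 and 60.4 CPM in NS and 49.4, 51.8 and 61.6 CPM in WS. Spry4 had 12.5, 16.2 and 17.0 CPM in NS and 12.6, 16.5 and 17.7 CPM in WS, higher in WS in 3 of 3 same-numbered pairs but by a log2 fold change of only 0.03 ± 0.15 (SE). Spry1 had 9.83, 12.2 and 11.3 CPM in NS and 9.89, 12.7 and 11.1 CPM in WS. In all 3 genes the replicates 1 were lowest in both groups, and the log2 fold changes of WS over NS lay between -0.01 and 0.03.

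Spred1 and Spred2 carry an EVH1 domain and bring the Ras inactivator neurofibromin to the membrane. Spred1 had 254, 235 and 233 CPM in NS and 232, 227 and 236 CPM in WS, the narrowest spread of the 10 genes, with a log2 fold change of -0.06 ± 0.07 (SE). Spred2 had 128, 133 and 119 CPM in NS and 139, 123 and 110 CPM in WS, and a log2 fold change of -0.03 ± 0.09 (SE). Neither had its replicates 1 lowest.

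**Figure D2:**
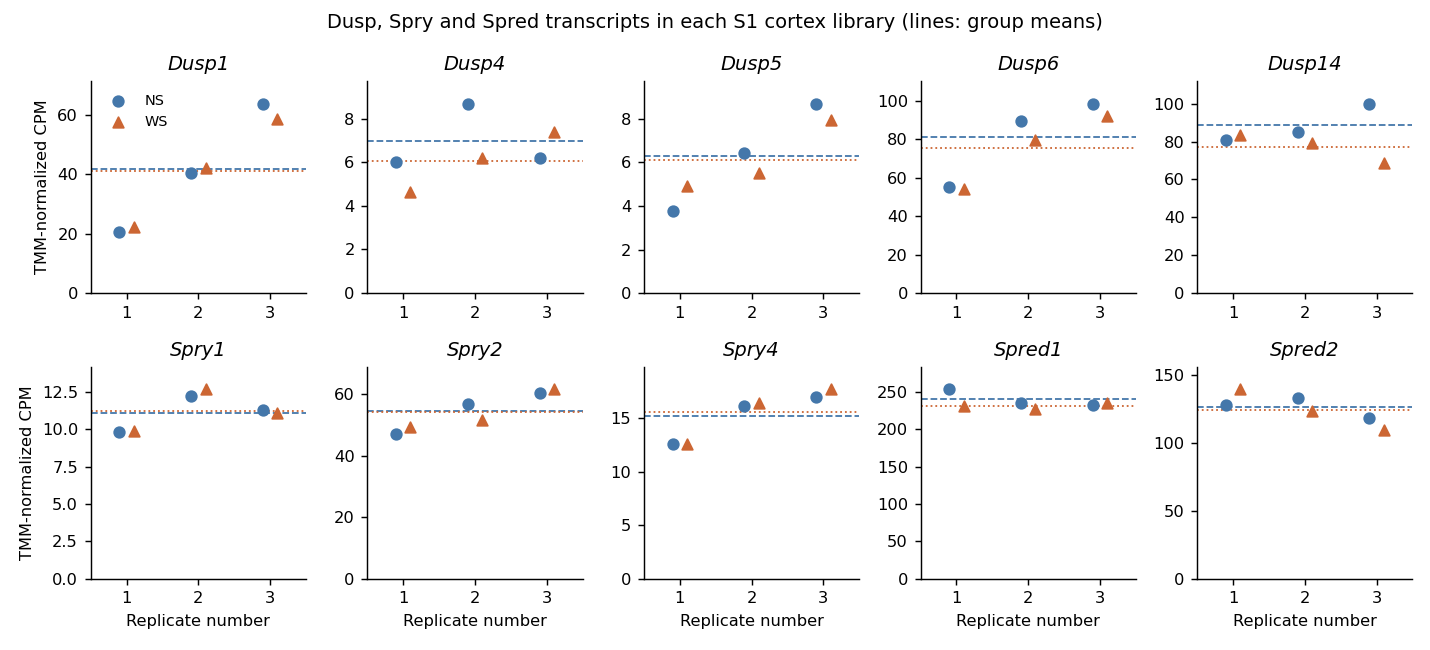
TMM-normalized CPM of each inhibitor (vertical axis, linear from 0) by replicate number (horizontal axis) in NS (blue circles) and WS (orange triangles), with lines at the group means. Dusp1, Dusp5 and Dusp6 are low in both libraries numbered 1, at 20.6 and 22.3 CPM for Dusp1, while Spred1 is nearly level.

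To compare levels between genes, CPM was divided by the length of the merged exons in kilobases. On this scale Dusp14 had a mean level of 42.6 and Spred1 of 34.8 CPM per kb over the 6 libraries, and their ranges overlapped. Spred2 at 27.1, Spry2 at 26.1, Dusp6 at 24.9 and Dusp1 at 12.5 CPM per kb followed, each overlapping its neighbour. Spry1 at 3.85, Spry4 at 3.24, Dusp5 at 2.51 and Dusp4 at 2.38 CPM per kb were lowest. The range of each gene overlapped that of the next in this order, except between Spred1 and Spred2 and between Dusp1 and Spry1. In the annotation Dusp1 overlaps Ergic1 and Gm8225 on the other strand and 2 unnamed transcripts on its own strand. Dusp5, Spry1 and Spry4 overlap genes on the other strand. The annotated Dusp1 gene reaches from 26505590 to 26562128 on the minus strand. Its merged exons thus include sequence upstream of the promoter window given below, and its CPM per kb depends on that length. How reads in such overlaps were assigned is not given in the sources used here.

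Because libraries of the same number were alike in several inhibitors, the replicate number itself was tested in the fit with group and number, a test chosen after the values had been seen. Under it 3 of the 10 genes were called at an adjusted p under 0.05 (edgeR), where 1.15% of all tested genes were. They were Dusp1, with an adjusted p of 6.35e-08, Dusp6 with 0.000443 and Dusp5 with 0.0487. At an unadjusted p under 0.05, 5 of 10 passed, the others being Spry4 and Spry2, against 7.79% of all genes. Since the same libraries led to the test, these p-values are a description of how far the numbers stand apart.

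Dusp1 was 3.09-fold higher in NS replicate 3 than in NS replicate 1, and 2.63-fold higher in WS replicate 3 than in WS replicate 1. For Dusp5 these ratios were 2.30 in NS and 1.62 in WS, and for Dusp6 1.79 in NS and 1.69 in WS. The ratios of replicates 3 to replicates 1 in the fit were 1.51 for Dusp1, 0.93 for Dusp5 and 0.80 for Dusp6 on the log2 scale. The median over the 10 inhibitors was 0.35, beside 0.0049 for all tested genes. In 5 of 10 genes the replicates 1 were lowest and the replicates 3 highest in both groups, a pattern held by 4.34% of all genes. For Dusp14, Spred1 and Spred2 the ratios of replicates 3 to 1 were 0.02, -0.05 and -0.23 on the log2 scale, and none passed the test.

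The calls of Dusp1 and Dusp6 held whichever library was left out, while Dusp5 was called or not with small changes. Its adjusted p was 0.216 without NS replicate 1 and 0.0579 without NS replicate 3, and 0.0502 with RLE normalization. The sources do not say whether a number marks 1 animal, day or preparation. The summed choroid plexus markers were also lowest in the replicates 1, at 33.3 CPM in NS and 10.2 CPM in WS against 48.9 to 93.5 CPM elsewhere, and all 5 of the tested markers were called by number. Oligodendrocyte markers summed to 7083 and 8409 CPM in the replicates 1 against 9624 to 11268 CPM elsewhere, with 2 of 6 called. Of the striatal markers 5 of 8 were called, in another order of libraries. They summed to 344, 469 and 480 CPM in NS replicates 1, 2 and 3, and to 352, 720 and 334 CPM in WS. The part of these markers in the difference was not tested.

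**Figure D3:**
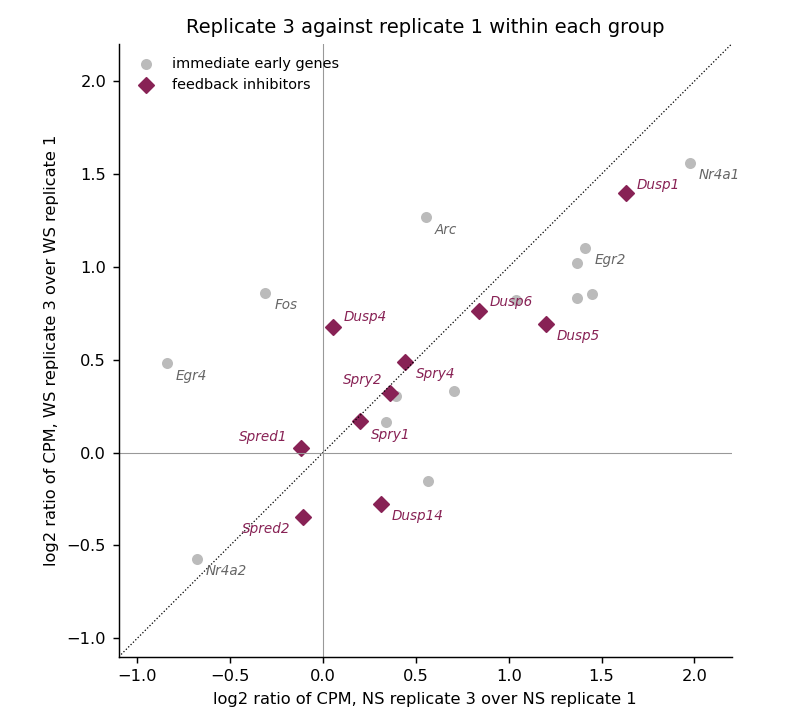
Log2 ratio of CPM in replicate 3 over replicate 1, in NS (horizontal axis) and in WS (vertical axis), for the 10 inhibitors (diamonds) and 14 immediate early genes (circles), with the line of equality dotted. Dusp1, at 1.63 in NS and 1.40 in WS, lies between Egr2 and Nr4a1 on both axes, and Spred1 lies near 0 on both axes.

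The promoters of the 3 genes that differed by number are shown for the motifs through which activity and serum are known to induce transcription. They are RefSeq sequences on GRCm38.p6, reaching from 250 bases before to 50 bases after the annotated start, and were found for 8 of the 10 genes, with no entry for Dusp4 and Spry4. The searched motifs were the cAMP response element (CRE) TGACGTCA, its short site TGACG, the CArG box bound by serum response factor, and the TATA box TATAAA, all on both strands. Capitals mark CRE, short-site and CArG matches. A full CRE also contains the short site on each strand. The Dusp1 promoter lies at chr17:26508423-26508722 on the minus strand, that of Dusp5 at chr19:53528895-53529194 on the plus strand, and that of Dusp6 at chr10:99262981-99263280 on the plus strand.
Dusp1: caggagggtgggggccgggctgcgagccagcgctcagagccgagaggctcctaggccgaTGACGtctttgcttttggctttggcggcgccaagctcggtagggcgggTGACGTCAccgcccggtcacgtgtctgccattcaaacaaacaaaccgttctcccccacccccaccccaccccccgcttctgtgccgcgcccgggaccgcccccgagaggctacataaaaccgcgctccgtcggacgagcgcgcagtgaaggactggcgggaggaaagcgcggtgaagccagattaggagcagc
Dusp5: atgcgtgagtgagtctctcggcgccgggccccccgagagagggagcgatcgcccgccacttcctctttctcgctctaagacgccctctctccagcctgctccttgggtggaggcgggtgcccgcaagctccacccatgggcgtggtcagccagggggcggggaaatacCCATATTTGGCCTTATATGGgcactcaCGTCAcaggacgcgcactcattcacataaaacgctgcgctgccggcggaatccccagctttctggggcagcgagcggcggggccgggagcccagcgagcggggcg
Dusp6: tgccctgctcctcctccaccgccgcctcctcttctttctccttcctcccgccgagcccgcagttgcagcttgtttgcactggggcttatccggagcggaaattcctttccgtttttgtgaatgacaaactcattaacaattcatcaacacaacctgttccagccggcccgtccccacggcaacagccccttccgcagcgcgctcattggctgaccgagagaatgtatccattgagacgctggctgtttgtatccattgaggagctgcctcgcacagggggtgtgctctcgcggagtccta

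The Dusp1 window held 1 full CRE, starting at position -143 from the start site, and a further short site at -191. The Dusp5 window held 2 adjoining CArG boxes, starting at -82 and -72, and a short site on the other strand at -55. In the Dusp6 window none of these letters was found. Of 32851 mouse promoters of the same length, 1.79% held the full CRE, 20.8% the short site, 1.63% a CArG box and 13.6% the TATA box. Among the other matched inhibitors, Spred2, which did not differ by number, also had a short site, at -51, and no matched inhibitor had the TATA box. These matches describe the sequence and carry no measurement of binding.

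By likeness over the 6 libraries, the root mean square difference of log2 CPM after each gene was centred on its own mean, the nearest genes to Dusp1 were Trib1 at 0.10, Nr4a1 at 0.15 and Cyr61 at 0.16. Those to Dusp5 were Junb at 0.12, Btg2 at 0.14 and Sik1 at 0.15. Those to Dusp6 were Arl4d at 0.097, Syt6 at 0.13 and Wwox at 0.13. The search covered 10876 genes with at least 100 counts on average, and Dusp1 itself varied by 0.62, Dusp5 by 0.40 and Dusp6 by 0.35 on the same scale.

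The rest of the pathway was read from 7 lists with 79 genes, of which 77 were tested. None was called between WS and NS in the fit without a block. Blocking on the replicate number gave 3 calls, all of them immediate early genes, the transcripts that rise first when a neuron is activated. Arc, a synaptic scaffold gene, had 124, 116 and 182 CPM in NS and 204, 229 and 490 CPM in WS. The blocked log2 fold change of Arc was 1.05 ± 0.11 (SE), with an adjusted p of 2.19e-06 by edgeR, against 1.00 without the block. Egr4, a zinc finger factor, was at 1.19 ± 0.15 with an adjusted p of 2.97e-05, against 0.101 without the block, and the AP-1 subunit Fos at 1.00 ± 0.15 with 0.000591, against 0.416. Each was higher in WS in 3 of 3 same-numbered pairs. In the same fit the 95% interval of Dusp1 was -0.20 to 0.22, that of Dusp5 -0.36 to 0.33 and that of Dusp6 -0.30 to 0.10. No test compared those inhibitors with Arc, Egr4 and Fos.

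By replicate number, 8 of the 14 immediate early genes were called and 0 of the 63 other pathway genes tested, against 1.15% of all tested genes. The 0 of 63 is near that share. Named here after their values were seen, Nr4a1, Egr2, Btg2, Ier2, Junb, Npas4 and Arc were higher in the replicates 3 than in the replicates 1, and Nr4a2 was lower. Nr4a1, a nuclear receptor induced by activity, had 54.3, 116 and 214 CPM in NS and 65.9, 108 and 194 CPM in WS, an order of libraries like that of Dusp1. Arc thus differed both by number and, in the blocked fit, by stimulation, whereas Egr4 had an adjusted p of 1.00 by number. Among the 13 other Dusp genes the log2 fold changes of WS over NS ran from -0.37 for Dusp9 to 0.13 for Dusp10, and among 9 other feedback inhibitors from -0.13 for Spry3 to 0.13 for Lrig1. Adaptors and Ras activators ran from -0.12 for Rasgrp1 to 0.22 for Shc3. In the list of Ras, Raf, MEK and ERK genes the highest was 0.09, for the MEK gene Map2k2. The JNK and p38 kinases ran from -0.09 for Mapk8 to 0.02 for Mapk12, and ERK effectors with ETS factors from -0.15 for Etv1 to 0.17 for Elk4. No gene of these 6 lists passed either test.

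**Figure D4:**
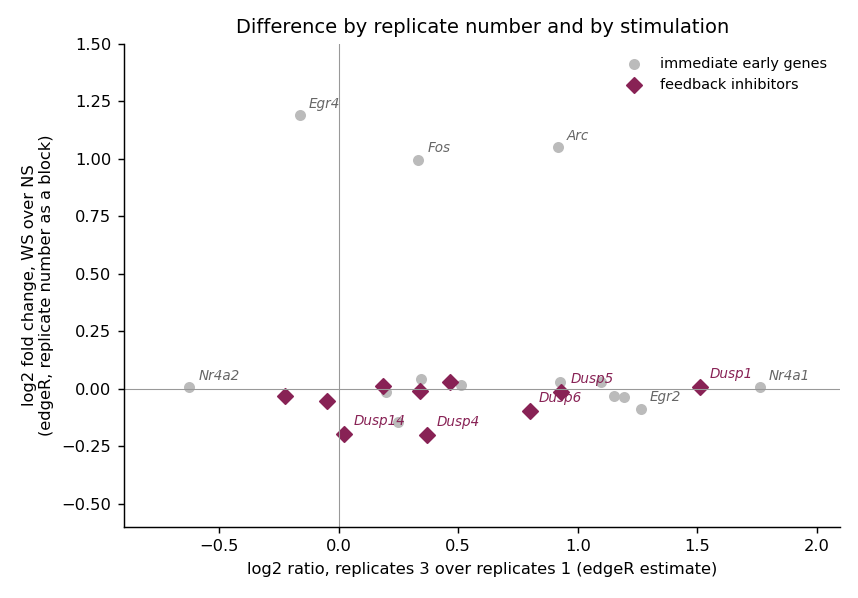
Log2 fold change of WS over NS in the blocked fit (vertical axis) against the log2 ratio of replicates 3 over replicates 1 (horizontal axis), both edgeR estimates, for the 10 inhibitors (diamonds) and 14 immediate early genes (circles). Egr4, Fos and Arc lie near 1 on the vertical axis, while Dusp1, at 1.51 on the horizontal axis, lies at 0.0063 on the vertical axis.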

How the data were processed

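Bulk RNA-seq was measured in 3 NS and 3 WS libraries of mouse S1 cortex, grouped by their labels. Per the study's methods, reads of rRNA and of low quality were removed by the authors and HISAT2 was the aligner; the submitters' processing notes name the mm10 build, and the counting tool is not given in the sources used here. The authors deposited, for each gene, a mean estimated count over the 6 libraries with an SD, and 1 z-score per library. The deposited z-score of each library was multiplied by the SD and added to the mean, and the result was rounded to a whole count. Before rounding, 91.0% of values lay within 0.1 of a whole number over 13418 genes where the deposited decimals allowed this check, where chance gives 20%. The column of WS replicate 3 has an irregular name and was taken as that library. Columns of the authors' own comparisons (fold changes, p-values and an FDR score) and group means were not used.

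Counts were tested with edgeR 4.0.16 (TMM, filterByExpr, quasi-likelihood F test, R 4.3.3) over 13747 genes with Benjamini-Hochberg adjustment, without a block. The planned count test was applied to these counts computed back from deposited z-scores. Biological variation was 10.1%. DESeq2 1.42.0, other normalizations and filters, the replicate block and each library left out were alternatives. Replicate numbers come from the sample titles. Same-numbered libraries of the 2 groups deviated together from their group means, with correlations of 0.343, 0.232 and 0.124 over 13688 genes. Libraries of different numbers gave correlations from -0.259 to 0.036, and the numbers were taken as pairs. Over 10876 genes with at least 100 counts the same-numbered correlations were 0.376, 0.346 and 0.068. Those of different numbers were not computed there, so the pairing of number 3 is the least shown. Without the block, p-values set a difference beside the spread between libraries of a group, treated as independent. With the block, they set it beside the spread left after replicate number is taken out. Tested on simulated data over 13670 genes for WS against NS, 94% of genes changed by 1 on the log2 scale were recovered and 6.93% of calls were false. For the replicate number, over 13680 genes, these were 86% and 7.53%. The simulated libraries took their spread from the fit with the block and held no other difference by number. They thus lacked part of the spread that the real test without a block faced, so recovery in that test can be lower.

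The members, gene lists and marker lists were chosen with earlier results of these data known. All 10 members are named; of each pathway list, the genes with the highest and lowest fold change and any gene called are named, except 1 gene that is not reported here. Likeness was searched for members spanning over 0.5 on the log2 scale. Gene spans and lengths came from GENCODE M21, and promoters from RefSeq.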

Additional observations from a re-analysis of the deposited data

How the results depend on the processing

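The count of inhibitors called between WS and NS was 0 in each of 15 alternatives, and their median log2 fold change lay between -0.18 and 0.07 with a library left out. Of 130 member values under alternatives, 19 changed sign and none passed the test. With the replicate number as a block Dusp1 was at 0.0063. With each library left out in turn, Dusp1 ran from -0.38 to 0.42, Dusp5 from -0.31 to 0.26, Dusp6 from -0.32 to 0.082, Spry1 from -0.091 to 0.098, Spry2 from -0.11 to 0.064, Spry4 from -0.092 to 0.16 and Spred2 from -0.12 to 0.055. Those that kept their sign ran from -0.37 to -0.011 for Dusp4, from -0.26 to -0.10 for Dusp14 and from -0.078 to -0.016 for Spred1. The cause was not tested.

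Of all genes, 4 were called between WS and NS by the adjusted p and fold, 164 by the unadjusted p alone, and 0 to 6 with a library left out, the 0 being reached when NS replicate 2 or 3 was the one omitted. By the adjusted p alone 5 were called, 11 with the replicate block and 8 with DESeq2. Of the other pathway genes, by adjusted p and fold, 2 were called with the replicate block, 1 with DESeq2 and 0 to 2 with a library left out, and 3 by the unadjusted p, against 0. The block changed no other call described here.

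By replicate number 158 genes were called, and 152 to 863 with a library left out: 288 when NS replicate 1 was omitted, 863 for NS replicate 3 and 351 for WS replicate 3. Pathway genes called ran from 8 to 13 and members from 2 to 3. With a library left out, 1 number is represented by 1 library and is assumed to vary like the others. Depth limits Dusp4 and Dusp5 most, with 60 to 140 counts a library. In simulated data 64% of genes changed by 0.5 on the log2 scale between WS and NS were recovered, against 94% at 1. Those simulated libraries lacked the spread by replicate number, so recovery in the real test without a block can be lower.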

Other observations

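Dusp4 and Dusp14, whose values also spanned over 0.5 on the log2 CPM scale and which passed neither test, had other nearest genes than Dusp1, Dusp5 and Dusp6. Dusp4 was nearest to Atxn7, with a root mean square difference of 0.076, then Pcdh11x at 0.089 and Slf1 at 0.090. Dusp14 was nearest to Imp3 at 0.026, then Adamtsl2 and Cd302 at 0.052 each. The other 5 inhibitors spanned 0.5 or less and were not searched.

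Among the marker lists, endothelial markers summed to 161 to 185 CPM in NS and 186 to 217 CPM in WS, and pericyte markers to 257 to 259 CPM in NS and 262 to 307 CPM in WS. None of the 6 endothelial and 6 pericyte genes was called. Astrocyte markers summed to 3357 to 3916 CPM in NS and 3557 to 4599 CPM in WS, and microglial markers to 286 to 302 CPM in NS and 296 to 317 CPM in WS.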
